A study of Mus musculus with 18 samples.

Results

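A set of 9 genes that bone morphogenetic protein (BMP) signalling induces through SMAD proteins, many of which then restrain the same signal, were followed in cultured mouse tail tendon fibroblasts (TFs). They were *Id1*, *Id2*, *Id3*, *Id4*, *Smad6*, *Smad7*, *Smad9*, *Atoh8* and *Bambi*, found by symbol as 9 of the 55491 rows of the count table. The genes were selected on measured values, since *Atoh8*, *Smad6*, *Smad7* and *Id1* had been seen to be lower in cKO than in Ctrl TFs in 20% O2. That contrast is therefore described here without a test for these genes.

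RNA was sequenced from 18 libraries in 6 groups of 3 after 4 days in culture. Ctrl TFs came from Cre-negative mice that the labels call wild-type, and cKO TFs from *Hif1a* flox/flox;ScxCre mice, in which the promoter of the tendon transcription factor *Scx* drives Cre recombinase against the floxed allele of *Hif1a*, the oxygen-regulated subunit of hypoxia-inducible factor 1. Both were cultured in 20% O2 (normoxia) or 1% O2 (hypoxia). A further set of Ctrl TFs was given Cre gesicles, vesicles that deliver the recombinase, and cultured at the same 2 oxygen levels. All TFs came from the tails of mice 4 to 6 months old of both sexes. The labels of the gesicle libraries also read wild-type. The paper instead gives *Hif1a* flox/flox as the genotype of its Cre-negative Ctrl mice, and it does not describe the gesicle libraries. Labels and paper thus differ on whether Ctrl and gesicle-treated cells carry a floxed allele. Scx-driven Cre acts in cells with a history of *Scx* expression, so a cKO culture can hold cells in which the allele is intact.

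BMP ligands bring together type I and type II serine/threonine kinase receptors, which phosphorylate SMAD1, SMAD5 and SMAD9. These enter the nucleus with SMAD4 and induce the *Id* genes, whose products bind basic helix-loop-helix (bHLH) partners such as the E proteins and keep them off DNA, as well as the inhibitory SMADs 6 and 7, the bHLH factor ATOH8 and the decoy receptor BAMBI. In tendon and at its bony insertion, BMP signalling is known for its part in specifying the cells of the bone eminence and in cartilage and bone formation.

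Library totals ranged from 6857558 to 51806453 counts, and the shallowest was replicate 1 of cKO TFs in 1% O2. Counts of 3 correspond to between 0.0579 and 0.437 CPM (counts scaled by library size) across the libraries. The lowest counts of *Smad7* and *Atoh8* in that shallow library were 74 and 156, and *Smad9*, the least abundant member, had between 23 and 142 counts per library. All 9 genes passed the filter on low counts in both fits. Tendon fibroblast markers exceeded 1 CPM for 10 of 10 genes in all 6 groups. The endothelial markers *Emcn*, *Erg* and *Cldn5* and the muscle markers *Myod1*, *Pax7*, *Myf5* and *Ckm* had at most 3 counts in any library. Of the 7 endothelial markers, however, *Tek* exceeded 1 CPM in every group, with means from 19.1 to 53.7 CPM. Of 6 macrophage markers, 2 to 4 exceeded 1 CPM by group, with *Lyz2* means from 13.5 to 17.2 CPM. Markers of other cells were thus not absent. Total *Hif1a* counts were not lower in the libraries labelled cKO (log2 difference 0.11 in 20% O2 and 0.075 in 1% O2). A count over the whole gene does not isolate the floxed part, so this does not check the deletion. The 8 hypoxia genes listed as a check of the oxygen labels (among them *Pdk1* and *Ankrd37*) were all called higher in 1% O2 in Ctrl TFs and in cKO TFs, and 7 of 8 in gesicle-treated TFs.

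Counts of *Xist* and of Y-linked genes showed that replicate 1 of the Ctrl and gesicle groups came from male cells and replicates 2 and 3 from female cells, whereas replicate 1 of the cKO groups was female and replicates 2 and 3 male. Sex is thus uneven between the genotypes, and values within sex are given beside the genotype results. These are bulk cultures, in which fewer cells of a type and less RNA per cell cannot be told apart. The libraries of a group share a label, and nothing says whether same-numbered libraries in 2 groups came from the same mouse.

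The members are spread over the mouse genome (GRCm38, GENCODE M21). *Id1* lies on chromosome 2 (152736251 to 152737410, plus strand), *Id3* on chromosome 4 (136143497 to 136145755, plus strand), *Id2* on chromosome 12 (25093799 to 25097140, minus strand) and *Id4* on chromosome 13 (48261228 to 48266026, plus strand). *Smad9* lies on chromosome 3 (54755582 to 54801257, plus strand), *Smad6* on chromosome 9 (63953076 to 64022059, minus strand) and *Atoh8* on chromosome 6 (72206177 to 72235577, minus strand). Whether the counting used strand is not stated, and *Id4* alone shares exon bases with genes on the opposite strand (*A330033J07Rik*, 2.1% of the exon bases of *Id4*, and *Gm49291*, 4.4%). The *Id4* counts are uncertain to that extent.

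A start-site window was matched by symbol in RefSeq's promoter table for 6 of the 9 genes, all except *Id1*, *Smad7* and *Bambi*. The 250 bases before the start are shown for the 2 genes with the widest spread between groups among those matched. These were *Atoh8* (chr6:72235578-72235827, minus strand) and *Smad6* (chr9:64022060-64022309, minus strand). The window of the receptor SMAD gene *Smad9* (chr3:54755332-54755581, plus strand) is shown as well, and all are from GRCm38.p6. Capitals mark the BMP-responsive element letters GGCGCC and GGAGCC and the hypoxia-response core ACGTG, on either strand.
Atoh8: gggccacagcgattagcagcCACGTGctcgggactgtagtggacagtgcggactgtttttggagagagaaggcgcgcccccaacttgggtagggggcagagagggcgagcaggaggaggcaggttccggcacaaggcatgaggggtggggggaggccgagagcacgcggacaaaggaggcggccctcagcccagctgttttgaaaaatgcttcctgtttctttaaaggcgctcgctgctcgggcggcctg
Smad6: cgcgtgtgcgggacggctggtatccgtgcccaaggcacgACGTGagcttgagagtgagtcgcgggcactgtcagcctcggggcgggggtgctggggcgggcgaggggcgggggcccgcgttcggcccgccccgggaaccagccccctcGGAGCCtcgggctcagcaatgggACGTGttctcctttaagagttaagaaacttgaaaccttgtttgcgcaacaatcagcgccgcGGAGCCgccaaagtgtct
Smad9: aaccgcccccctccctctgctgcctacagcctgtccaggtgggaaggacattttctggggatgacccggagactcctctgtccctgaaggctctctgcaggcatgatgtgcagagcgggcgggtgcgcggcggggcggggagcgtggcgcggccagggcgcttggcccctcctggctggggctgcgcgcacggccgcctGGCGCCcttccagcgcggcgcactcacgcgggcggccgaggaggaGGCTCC

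In *Atoh8* the capitals mark CACGTG, an E-box letter run that holds ACGTG on both strands, at 230 bases before the start. *Smad6* held ACGTG at 211 and at 79 bases and GGAGCC at 102 and at 18 bases before the start. *Smad9* held GGCGCC at 51 bases and GGAGCC, on the other strand, at 6 bases before the start.

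Over the 6 matched windows, GGAGCC occurred in 5 (all but *Atoh8*), compared with 26.0% of 32851 promoters in the table. GGCGCC occurred in 3 (*Smad9*, *Id2* and *Id4*), compared with 9.59% of all. ACGTG occurred in *Atoh8* and *Smad6*, compared with 16.6% of all, and GCGTG in 4 (*Smad9*, *Id3*, *Atoh8* and *Smad6*), compared with 28.2%. The E-box letters CAGCTG, which bHLH factors bind, occurred in *Atoh8* and *Id2* (13.0% of all) and CACGTG in *Atoh8* (6.02%). The SMAD palindrome GTCTAGAC was in 0 of the 6 windows and in 0.167% of all. These windows were richer in G and C (63.2% in *Atoh8*, 66.8% in *Smad6* and 73.2% in *Smad9*) than the median promoter (52.4%), and all these searches covered both strands. The windows of *Id2* and *Id3* lie inside the gene spans given above and overlap 1 annotated exon each, so their matches are not upstream of the annotated genes. A match gives letters only and does not show that a factor binds there.

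The members differed widely in level and in how far they moved between groups. Per kilobase of exon, Ctrl TFs in 20% O2 had most *Id3* (95.0 CPM per kb), followed by *Id1* (37.8), *Atoh8* (32.2) and *Smad6* (29.0), with *Id2* (13.7), *Id4* (13.6) and *Smad7* (11.2) lower and *Bambi* (3.55) and *Smad9* (0.611) lowest. The transcript levels of this set were thus led by 2 ID genes. In cKO TFs in 20% O2 *Id3* still led (37.6 CPM per kb), but *Atoh8* stood at 2.701 CPM per kb and had passed from the third to the seventh place. In cKO TFs in 1% O2 *Atoh8* was at 10.2 CPM per kb and again the third.

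*Atoh8* had the widest range over the 6 groups, with a ratio of 13.5 between the highest and the lowest group mean CPM. The ratio was 4.28 for *Smad7*, 4.06 for *Smad6*, 3.61 for *Smad9*, 3.52 for *Id1*, 2.75 for *Id2*, 2.63 for *Id3*, 2.10 for *Id4* and 1.73 for *Bambi*. cKO TFs in 20% O2 had the lowest mean for 8 of the 9 genes, and *Smad7* was lowest in cKO TFs in 1% O2. Since the genes were chosen for that contrast, this order is a description. Most neighbours in the order of groups overlapped in their libraries. Those that did not were *Smad7* in Ctrl TFs above gesicle-treated TFs in 20% O2, *Smad7* in cKO TFs in 20% above 1% O2, and *Smad9* and *Atoh8* in cKO TFs in 1% above 20% O2.

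**Figure D1:**
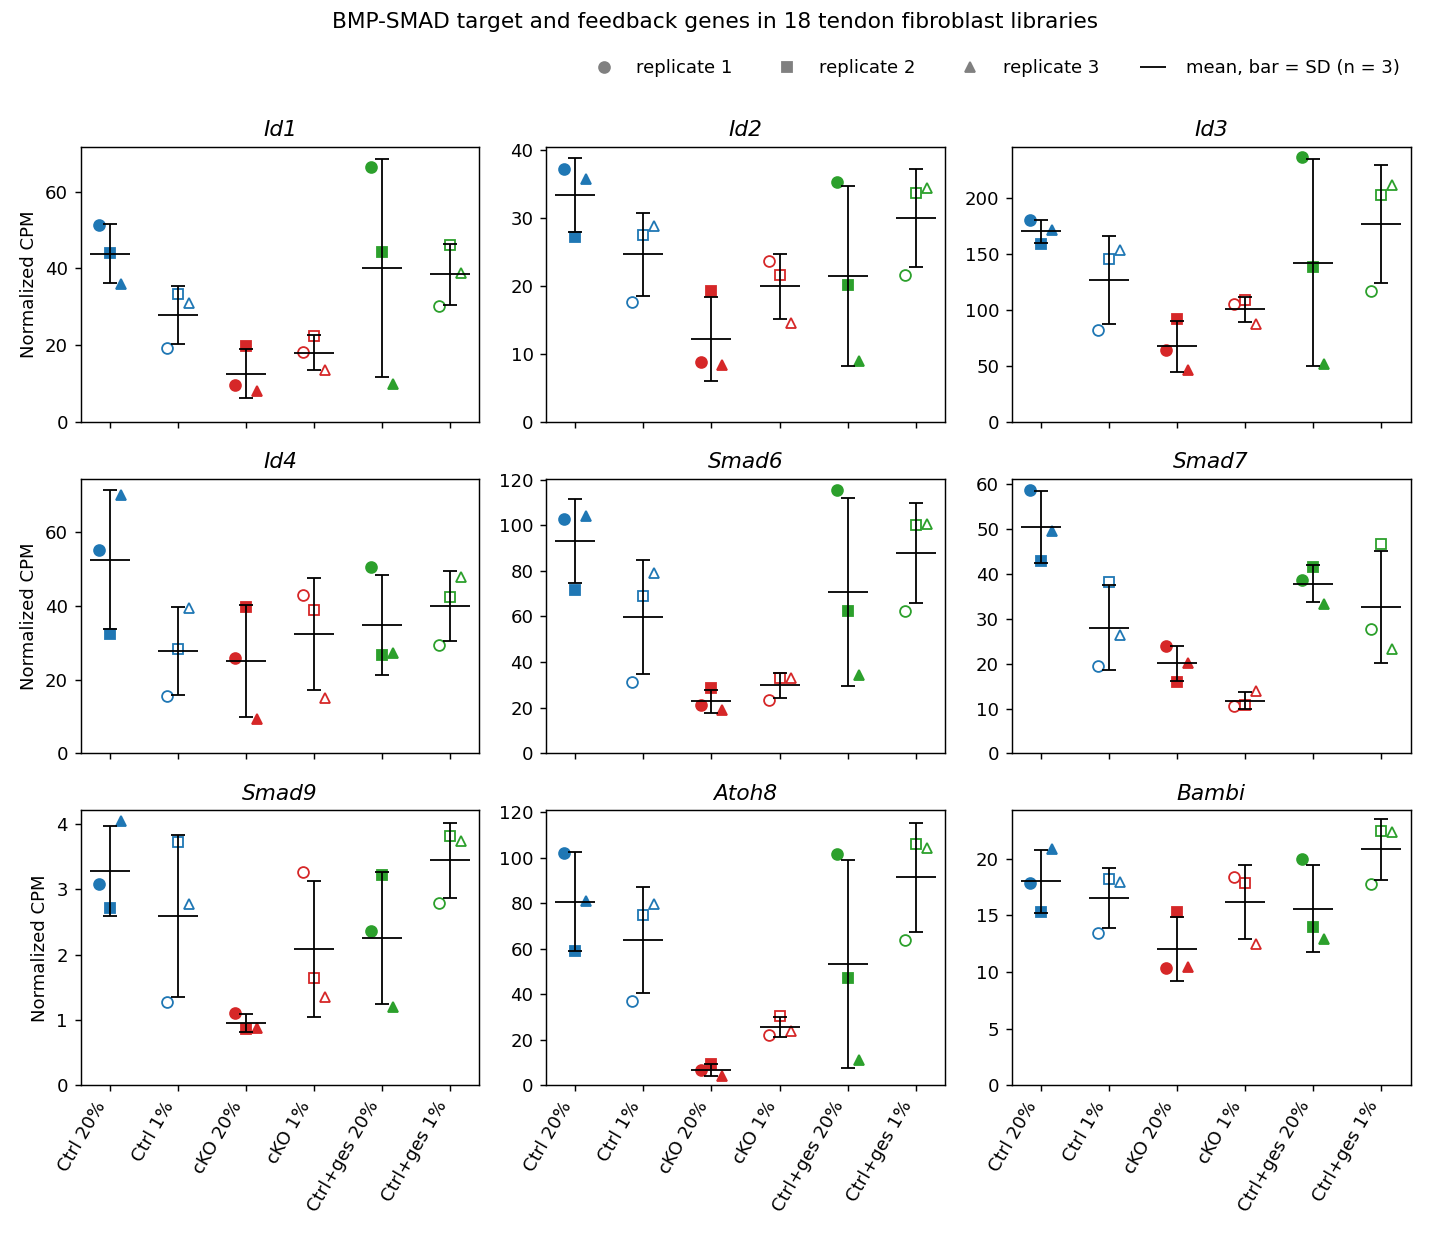
Normalized CPM (linear axis from 0) of the 9 genes in each of the 18 libraries, with colour for the arm (Ctrl, cKO, Ctrl with gesicles), filled symbols for 20% O2, open symbols for 1% O2, symbol shape for the replicate number and black bars for mean and SD (n = 3). The 3 cKO libraries in 20% O2 sit between 4.10 and 9.44 CPM for *Atoh8*, below every other library, while gesicle-treated TFs in 20% O2 are spread widely.

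In 20% O2, the condition in which they were chosen, all 9 genes had lower means in cKO than in Ctrl TFs. The median of their log2 fold changes was -1.46, against 0.034 over the 15850 genes tested. For 7 of the 9 the 3 cKO libraries lay below the 3 Ctrl libraries, and *Id4* and *Bambi* overlapped; 10.3% of all genes tested were separated in this way. Of all genes, 0.347% were called in this contrast, where a call needs a fold change of 1.5 or more and an adjusted p under 0.05. Nothing is read from these counts about the members, because this contrast chose them.

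*Atoh8*, a bHLH transcription factor, stood at 102, 59.0 and 80.9 CPM in replicates 1 to 3 of Ctrl TFs and at 6.77, 9.44 and 4.10 CPM in cKO TFs (log2 fold change -3.58, SE 0.36). All 3 cKO libraries were far below the lowest Ctrl library. *Smad6*, which inhibits BMP receptor signalling, was at 103, 71.6 and 104 CPM in Ctrl TFs, against 21.2, 28.5 and 18.9 CPM in cKO TFs (-2.03, SE 0.31). *Smad7*, which also inhibits TGF-beta receptors, was at 58.8, 42.8 and 49.6 CPM in Ctrl TFs, against 23.9, 16.0 and 20.2 CPM in cKO TFs (-1.34, SE 0.24). Neither inhibitory SMAD overlapped between the genotypes. *Smad9*, whose product carries the BMP signal, was at 3.08, 2.72 and 4.04 CPM in Ctrl TFs, against 1.11, 0.865 and 0.884 CPM in cKO TFs (-1.79, SE 0.42).

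Among the ID genes, *Id1* was at 51.4, 44.0 and 36.0 CPM in Ctrl TFs, against 9.43, 19.8 and 8.09 CPM in cKO TFs (-1.82, SE 0.34). *Id3*, the most abundant, was at 180.1, 159 and 171 CPM in Ctrl TFs, against 64.0, 91.8 and 46.3 CPM in cKO TFs (-1.34, SE 0.26). In both, replicate 2 was the highest cKO library and still lay below the Ctrl libraries. *Id2* had group means of 33.4 ± 5.47 CPM in Ctrl TFs, against 12.1 ± 6.16 CPM in cKO TFs (SD, n = 3; -1.46, SE 0.32). *Id4*, which is tied to neural and osteogenic differentiation, had a wide spread in both genotypes (52.5 ± 18.9 and 25.0 ± 15.2 CPM; -1.08, SE 0.52). *Bambi*, a receptor-like protein without a kinase domain, had the smallest difference (17.99 ± 2.77 and 12.04 ± 2.82 CPM; -0.58, SE 0.22).

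Within sex, all 9 members were lower in cKO TFs among males (2 cKO libraries and 1 Ctrl library, median log2 difference -1.71) and among females (1 cKO and 2 Ctrl, -1.56). These are the libraries that chose the genes. For the 7 members without overlap between the genotypes, a lower value within each sex was fixed in advance. The values within sex are therefore a description and do not test the part of sex. Without replicate 2 of cKO TFs in 20% O2, the values of *Id1* and *Id2* were -2.34 and -1.98.

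In 1% O2, in libraries that had no part in the choice, 0 of the 9 members were called between cKO and Ctrl TFs in edgeR's quasi-likelihood test (0.0379% of all genes were called). The 3 with the largest differences were *Atoh8*, *Smad7* and *Smad6*. The means of 8 of the 9 were lower in cKO TFs, with a median log2 fold change of -0.41 against 0.0030 over all genes. At an unadjusted p under 0.05, 2658 genes differed, and *Smad7*, *Atoh8* and *Smad6* were among them.

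*Smad7* was at 19.6, 38.2 and 26.5 CPM in Ctrl TFs, against 10.5, 10.9 and 14 CPM in cKO TFs in 1% O2. All 3 cKO libraries lay below all 3 Ctrl libraries. The log2 fold change was -1.24 (SE 0.24), with an adjusted p of 0.112 in edgeR's test.

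*Atoh8* was at 36.9, 74.9 and 79.7 CPM in Ctrl TFs, against 22.2, 30.4 and 24.0 CPM in cKO TFs, again without overlap. Its log2 fold change was -1.32 (SE 0.33), with an adjusted p of 0.191 in edgeR's test. *Smad7* and *Atoh8* were the 2 of 9 members with all cKO libraries lower, a separation that 15.2% of all genes tested also showed. Both were called with DESeq2 (*Smad7*, adjusted p = 0.000700; *Atoh8*, adjusted p = 0.0117) and with edgeR without the filter on low counts (adjusted p = 0.00869 and 0.0211), which called 2.36% and 0.389% of all genes, so their side of the threshold in 1% O2 depended on the tool and the filter.

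*Smad6* was at 31.3, 69.0 and 78.9 CPM in Ctrl TFs, against 23.5, 33.1 and 32.9 CPM in cKO TFs. The groups overlapped, because replicate 1 of Ctrl TFs lay below 2 of the cKO libraries (log2 fold change -0.996, SE 0.30, edgeR adjusted p = 0.207). *Id1* was at 19.3, 33.3 and 31.0 CPM in Ctrl TFs, against 18.2, 22.4 and 13.4 CPM in cKO TFs (-0.64, SE 0.33, edgeR adjusted p = 0.337). *Id3* was at 81.8, 145 and 154 CPM in Ctrl TFs, against 105, 109 and 87.3 CPM in cKO TFs (-0.34, SE 0.25). Both ID genes overlapped between the genotypes. The other 4 members ranged from -0.41 (SE 0.42) for *Smad9* to 0.20 (SE 0.52) for *Id4*, with *Id2* at -0.32 (SE 0.32) and *Bambi* at -0.039 (SE 0.22).

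Within sex, the genotype difference in 1% O2 was uneven. Among females (1 cKO and 2 Ctrl libraries), the log2 difference of cKO from Ctrl TFs was -1.80 for *Atoh8*, -1.65 for *Smad6* and -1.59 for *Smad7*, with 6 of 9 members lower and a median of -0.51. Among males (2 cKO libraries and 1 Ctrl library), it was -0.67 for *Smad7*, -0.45 for *Atoh8* and 0.076 for *Smad6*, and 3 of 9 members were lower, with a median of 0.076. The only male Ctrl library in 1% O2 was replicate 1, in which all 9 genes lay below their group mean. With sex as a covariate, a fit chosen after the data were seen, edgeR's log2 fold changes were -1.18 for *Smad7* (adjusted p = 0.138), -1.31 for *Atoh8* (adjusted p = 0.207) and -0.96 for *Smad6* (adjusted p = 0.263), and again 0 members were called.

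Markers of other cell types were measured beside these genes. The summed level of 7 mural cell markers (*Rgs5*, *Myh11*, *Notch3*, *Mcam*, *Des*, *Kcnj8* and *Abcc9*) ranged from 62.0 to 111 CPM in Ctrl and from 29.7 to 42.9 CPM in cKO TFs in 20% O2, and 7 of 7 had negative fold changes. In 1% O2 it ranged from 45.8 to 66.5 CPM in Ctrl and from 29.9 to 40.6 CPM in cKO TFs, with 5 of 7 negative, and 0 of the 7 were called at either level (smallest edgeR adjusted p 0.0505 and 0.207). All 7 were also negative in gesicle-treated against Ctrl TFs in 20% O2, with a median of -0.41. Of the 10 tendon fibroblast markers, 6 had positive and 4 negative fold changes in cKO TFs at both oxygen levels, with medians of 0.12 and 0.16 and lowest values of -1.15 and -1.09. *Dcn*, a proteoglycan gene and the only one of these 10 called, rose in cKO TFs (edgeR, log2 fold change 1.96 in 20% O2, adjusted p = 0.0233, and 2.58 in 1% O2, adjusted p = 0.0171). The 5 of 7 cartilage and bone markers that could be tested were all negative in cKO TFs (medians -0.43 in 20% and -0.66 in 1% O2). The 3 of 4 Schwann cell markers tested were all positive (1.18 and 0.72), as were the 1 endothelial and the 1 muscle marker tested. Of 4 macrophage markers tested, 3 were positive in 20% and 2 in 1% O2. None of the markers of these 5 lists was called. The part of all these differences in the members' values was not tested.

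**Figure D2:**
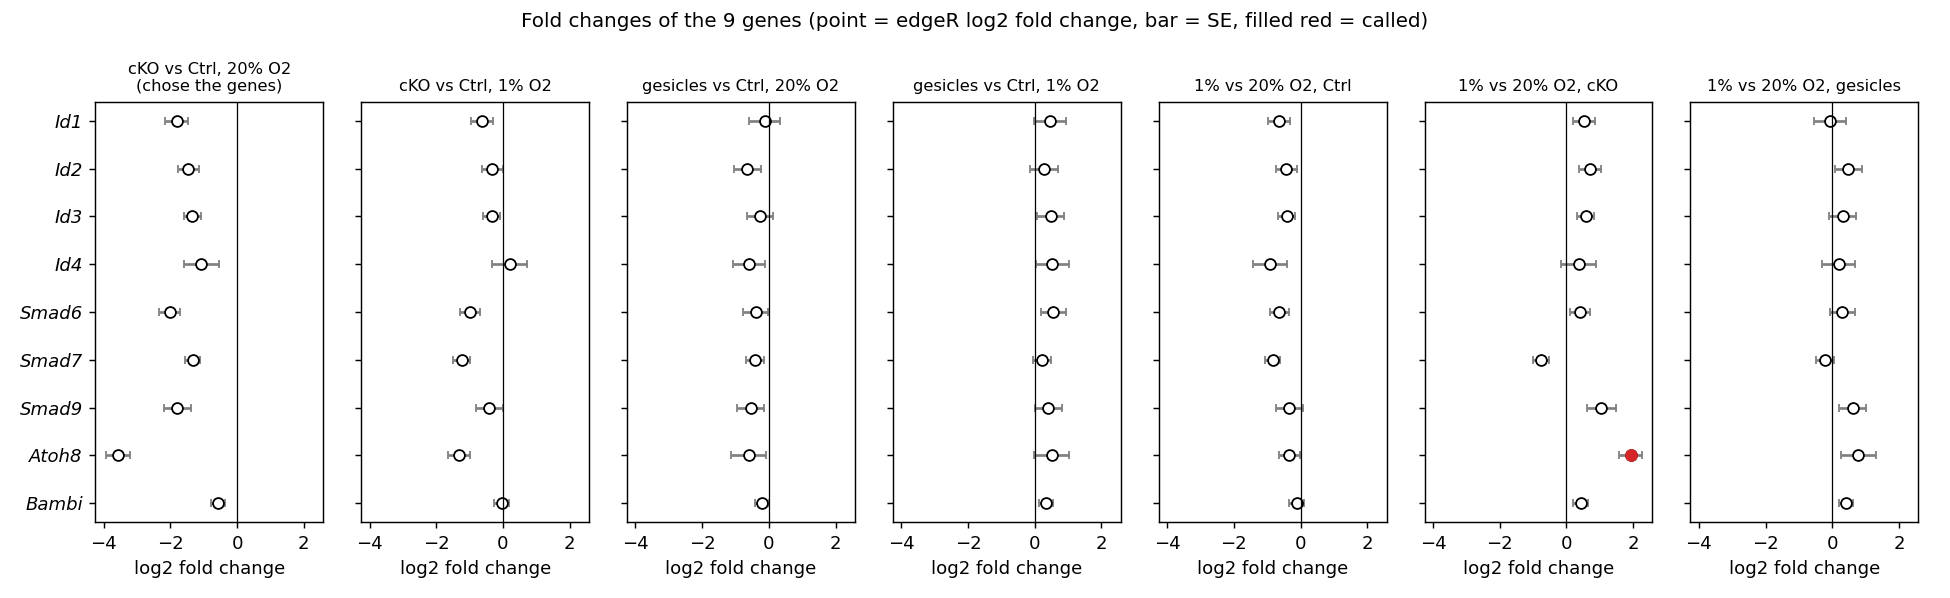
Log2 fold change of each of the 9 genes (points, with bars for the SE) in the 7 comparisons, with points filled in red where the gene was called. In 20% O2 all 9 points lie left of 0 for cKO against Ctrl TFs, and the single red point is *Atoh8* at 1.93 for 1% against 20% O2 in cKO TFs.

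The response to oxygen was compared next, within each arm. In Ctrl TFs, 0 of the 9 members were called between 1% and 20% O2 (1.88% of all genes were called), although all 9 means were lower in 1% O2. The median log2 fold change was -0.43 against 0.0002 over all genes. These values share the Ctrl libraries in 20% O2 with the contrast that chose the genes, so their direction is not independent of the choice.

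*Smad7* was the nearest to a call, at -0.84 (SE 0.23, edgeR adjusted p = 0.0978), with all 3 libraries in 1% O2 below those in 20% O2. *Id1* (-0.65, SE 0.33) and *Id3* (-0.41, SE 0.25) were separated in the same way, making 3 of 9, while 13.4% of all genes were. *Id4* (-0.92, SE 0.52), *Smad6* (-0.63, SE 0.30), *Id2* (-0.43, SE 0.32), *Smad9* (-0.34, SE 0.40), *Atoh8* (-0.33, SE 0.32) and *Bambi* (-0.12, SE 0.22) overlapped between the oxygen levels. Calls of *Smad7* came from DESeq2 (-0.87, adjusted p = 0.0161), from edgeR without the filter (-0.85, adjusted p = 0.0453) and from edgeR without replicate 2 of Ctrl TFs in 1% O2 (-1.13, adjusted p = 0.0345), which called 4.57%, 1.48% and 1.59% of all genes.

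Taken by replicate number, the difference in Ctrl TFs was uneven. In replicate 1 all 9 genes were lower in 1% O2, by a median of -1.41 on the log2 scale (range -1.83 to -0.41). In replicate 3 all 9 were lower as well, by a median of -0.31 (range -0.91 to -0.021), and in replicate 2 only 5 of 9 were (median -0.054, range -0.40 to 0.45). *Id1*, *Id3*, *Id4*, *Smad6* and *Smad7* were lower in 1% O2 in each of the 3 numbers.

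In cKO TFs, *Atoh8* rose in 1% O2 and was the only member called, 1 of 9, where 2.1% of all genes were called and 1.4% were called higher. It went from 6.77, 9.44 and 4.10 CPM in 20% O2 to 22.2, 30.4 and 24.0 CPM in 1% O2, without overlap. That was a 3.81-fold increase (log2 fold change 1.93, SE 0.34, edgeR adjusted p = 0.0149), to a mean of 25.5 ± 4.34 CPM (SD, n = 3), below the 63.8 ± 23.5 CPM of Ctrl TFs in 1% O2. The call was lost without replicate 1 (1.93, adjusted p = 0.0601) or replicate 3 (1.66, adjusted p = 0.0647) of cKO TFs in 20% O2, without replicate 2 of cKO TFs in 1% O2 (1.79, adjusted p = 0.0638), and in edgeR's fit of all 18 libraries (1.92, adjusted p = 0.0637). The cKO libraries in 20% O2 belong to the contrast that chose the genes. This rise, and the values of the other members between the oxygen levels in cKO TFs, are thus not independent of the choice.

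*Smad9* was also higher without overlap (0.953 ± 0.137 CPM in 20% and 2.09 ± 1.03 CPM in 1% O2, log2 fold change 1.05, SE 0.43, edgeR adjusted p = 0.210). Its highest value in 1% O2 was 3.27 CPM in replicate 1, the shallowest library, from 23 counts. Replicates 2 and 3 were at 1.64 and 1.35 CPM. As single libraries were left out, the log2 fold change of *Smad9* ranged from 0.68 to 1.31. *Atoh8* and *Smad9* made 2 of 9 members separated upward, and 10.5% of all genes were. *Smad7* was the only member with a negative value, at 23.9, 16.0 and 20.2 CPM in 20% and 10.5, 10.9 and 14 CPM in 1% O2 (-0.75, SE 0.24, edgeR adjusted p = 0.123), and 10.2% of all genes were separated downward as it was. DESeq2, which called 5.94% of all genes, called *Smad7* lower (adjusted p = 0.0482). *Smad7* thus had its lowest values of all groups in the same libraries in which *Atoh8* was higher.

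The remaining members had positive values that did not pass the test, *Id2* at 0.71 (SE 0.32), *Id3* at 0.58 (SE 0.25), *Id1* at 0.53 (SE 0.33), *Bambi* at 0.43 (SE 0.22), *Smad6* at 0.40 (SE 0.30) and *Id4* at 0.36 (SE 0.52). Replicate 2 of cKO TFs in 20% O2 was the highest of its group for all 4 ID genes. Without it, edgeR called 5 members: *Id1* (1.06, adjusted p = 0.0333), *Id2* (1.23, adjusted p = 0.0175), *Id3* (0.89, adjusted p = 0.0401), *Smad7* (-0.87, adjusted p = 0.0483) and *Atoh8*. That fit called 8.42% of all genes, against 2.1% with every library. The number of members called in cKO TFs therefore ranged from 0 to 5 as single libraries were left out. Each of these fits uses cKO libraries in 20% O2 that entered the choice, so the calls are not independent of it. Leaving out replicate 2 also lowered the 20% O2 values of the ID genes.

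In gesicle-treated TFs, none of whose libraries entered the choice, 0 of the 9 members were called between 1% and 20% O2 by edgeR (2.41% of all genes were called and 2805 genes had an unadjusted p under 0.05). *Bambi* had the smallest adjusted p (0.334, log2 fold change 0.42, SE 0.22). *Atoh8* had the largest value (0.78, SE 0.53), and 7 members were positive and *Id1* (-0.065, SE 0.48) and *Smad7* (-0.21, SE 0.26) negative, with a median of 0.32 against -0.020 over all genes. No member was separated between the oxygen levels, while 13% of all genes were separated upward and 11% downward.

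In gesicle-treated TFs *Atoh8*, *Id1*, *Id3* and *Smad6* had the largest SDs of CPM in 20% O2. Relative to the mean, *Id2* (SD 61.8% of the mean) was spread more widely than *Smad6* (58.1%). *Atoh8* was at 102, 47.0 and 11.3 CPM there and at 63.8, 106 and 104 CPM in 1% O2. *Id1* was at 66.3, 44.2 and 9.88 CPM in 20% and 30.2, 46.2 and 38.7 CPM in 1% O2, and *Id3* at 236, 139 and 51.4 CPM and 116, 203 and 212 CPM. *Smad6* was at 116, 62.4 and 34.5 CPM in 20% and 62.3, 100.02 and 100.6 CPM in 1% O2. In each of these 4 genes, and in *Id2* and *Bambi*, replicate 1 was the highest and replicate 3 the lowest library in 20% O2. *Smad7* did not follow this order and was spread more widely in 1% O2 (38.7, 41.5 and 33.3 CPM in 20% and 27.8, 46.8 and 23.2 CPM in 1% O2).

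Between gesicle-treated and Ctrl TFs, 0 of the 9 members were called at either oxygen level. In 20% O2, where edgeR called 0.0247% of all genes and 594 had an unadjusted p under 0.05, all 9 values were negative relative to Ctrl TFs (-0.64 to -0.13, median -0.42), and *Smad7* was separated downward, as 5.63% of all genes were. The 7 mural cell markers were all negative there too, with a median of -0.41, and their part in these values was not tested. The replicate numbers disagreed: 5 of 9 members were lower in replicate 1 (median -0.0058), 7 in replicate 2 (median -0.20) and 9 in replicate 3 (median -1.74, with *Atoh8* at -2.84). Without replicate 3 of gesicle-treated TFs in 20% O2, *Id1* was at 0.34 and *Id3* at 0.14. These values share the Ctrl libraries in 20% O2 with the contrast that chose the genes.

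In 1% O2, where edgeR called 0% of all genes and 324 had an unadjusted p under 0.05, all 9 values were positive (0.22 to 0.55, median 0.46), led by *Smad6* (0.55, SE 0.38), *Id4* (0.53, SE 0.49) and *Atoh8* (0.52, SE 0.53), none with an adjusted p under 1. All 9 were higher in replicates 1 and 2, and in replicate 3 *Smad7* alone was lower (-0.19). The difference between the oxygen responses of gesicle-treated and Ctrl TFs, a test chosen after the data were seen, was positive for all 9 genes (0.54 to 1.12), with a smallest unadjusted p of 0.0950 for *Smad6* and 0 of 16174 genes called by edgeR. It contains the Ctrl libraries in 20% O2 that entered the choice of the genes, so this direction is not independent of the choice. *Smad7*, *Atoh8* and *Smad6*, the 3 members with the lowest values in cKO TFs in 1% O2, were at 0.22, 0.52 and 0.55 in gesicle-treated TFs. The difference between those comparisons, which share the Ctrl libraries in 1% O2, was not tested.

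The members varied together between the libraries of one group. Over the 36 pairs of members, the correlation of log2 CPM after removal of the group means ranged from -0.0059 to 0.970 with a median of 0.645 (18 libraries, a description without a test). *Id3* and *Atoh8* were the closest pair. *Id2* had the highest median correlation with the other members (0.859), followed by *Id3* (0.835) and *Atoh8* (0.805), and *Smad7* the lowest (0.211). The points share library preparation and depth.

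Single libraries moved as a whole. In replicate 3 of gesicle-treated TFs in 20% O2 all 9 genes lay below the group mean (mean log2 deviation -0.89), and in replicate 1 of that group all 9 lay above it (0.73). All 9 were also below the group mean in replicate 1 of Ctrl TFs in 1% O2 (mean deviation -0.60) and in replicate 1 of gesicle-treated TFs in 1% O2 (-0.37). Both of these are male libraries in groups whose other libraries are female, whereas replicate 1 of the same arms in 20% O2 was above its group mean. In cKO TFs in 20% O2, the mean deviation was 0.42 in replicate 2 and -0.41 in replicate 3, and these are both male.

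**Figure D3:**
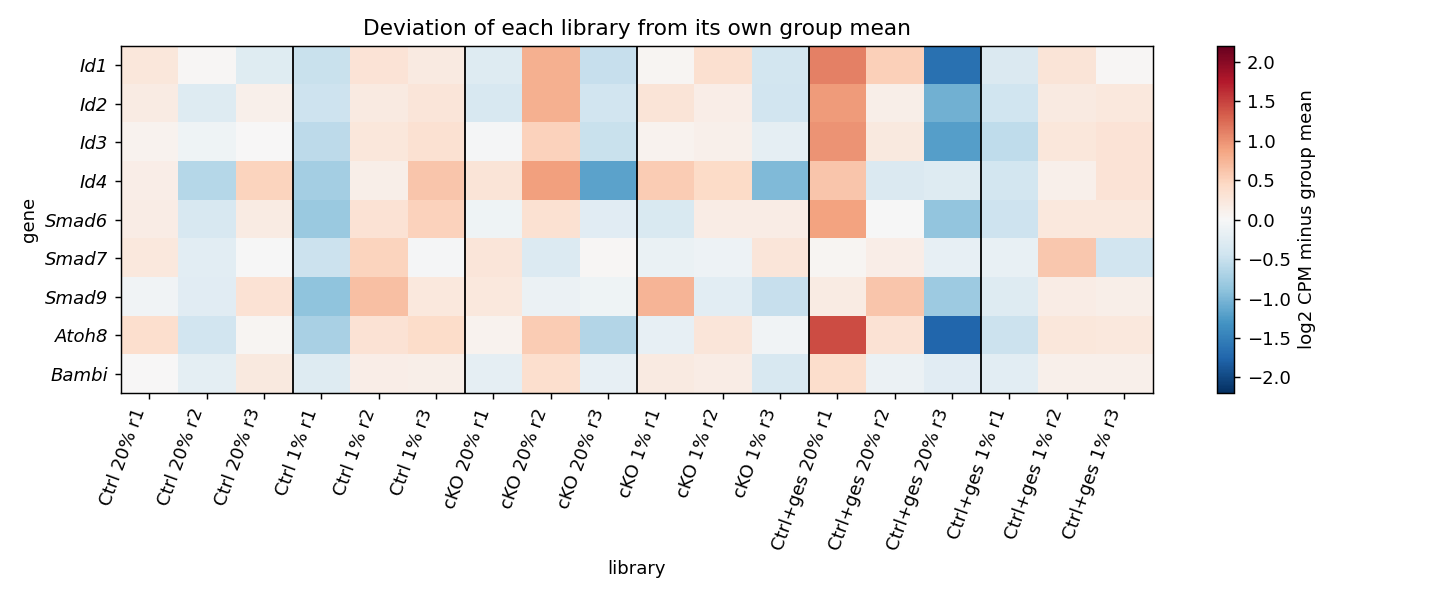
Log2 CPM of each of the 9 genes (rows) in each of the 18 libraries (columns) minus the mean of its own group, in red above and in blue below the mean, with vertical lines between groups. Whole columns share a colour, most clearly replicate 3 of gesicle-treated TFs in 20% O2 (mean deviation -0.89), while the row of *Smad7* often departs from the others.

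The genes most like the members over the 18 libraries were taken from 16165 other genes by Pearson's r of log2 CPM, as a description of libraries that share groups and depth. *Pparg*, a nuclear receptor of fat cell differentiation, was among the 3 most alike for 5 members (*Id1*, *Id2*, *Id3*, *Atoh8* and *Bambi*; r from 0.896 to 0.936). For *Atoh8* the closest was *Rgs4* (0.945), for *Smad6* *Tmem151a* (0.977) and then *Fgfr3* (0.951), for *Id1* *Dlx2* (0.925), and for *Smad9* *Nrip3* (0.927). *Smad7* had another set, *Mrtfa* (0.951), *Pde8a* (0.951) and *Myo1d* (0.941). *Bambi* was closest to *Maoa* (0.936) and *Id4* to *Adra1b* (0.859).

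The rest of the BMP pathway was described by role, from lists of ligands, receptors, antagonists, SMADs, SMAD modifiers, other BMP targets, TGF-beta targets and bHLH factors. The ligands went the other way from the members in 20% O2. All 8 of the 13 listed BMP and GDF ligands that could be tested had positive values in cKO against Ctrl TFs (median 1.31 in 20% O2), and 6 of 8 did in 1% O2 (median 0.53), with 0 called at either level. In gesicle-treated against Ctrl TFs 8 of 8 were also positive in 20% O2 (median 0.48), a comparison with the same Ctrl libraries. There 3 of 8 were positive in 1% O2 (median -0.13), and 0 were called at either level.

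*Bmp4*, named after its values were seen, had the largest value of the ligands. It was at 0.428 ± 0.335 CPM in Ctrl TFs, against 4.14 ± 1.65 CPM in cKO TFs in 20% O2 (log2 fold change 3.27, SE 0.81, edgeR adjusted p = 0.123). In 1% O2 it was at 0.403 ± 0.335 CPM in Ctrl TFs, against 4.58 ± 2.52 CPM in cKO TFs (3.52, SE 0.82, edgeR adjusted p = 0.172; SD, n = 3 throughout). Gesicle-treated TFs had 1.24 ± 0.574 CPM in 20% and 1.32 ± 0.702 CPM in 1% O2. Neither difference passed the test.

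The other roles had medians of smaller size than the ligands at both oxygen levels. Medians in cKO against Ctrl TFs were -0.16 in 20% and -0.15 in 1% O2 for 11 receptors, -0.23 and -0.052 for 11 antagonists, and -0.11 and -0.098 for *Smad1* to *Smad5*. For 10 SMAD modifiers they were -0.27 and -0.48, with 9 of 10 negative at both levels. For 11 other BMP targets they were -0.72 and -0.46, with 10 and 9 of 11 negative, and for 9 TGF-beta targets -0.49 and -0.18. The 7 bHLH factors that could be tested, the partners of the ID proteins, had positive medians of 0.22 and 0.40. The medians of the SMAD modifiers and of the other BMP targets in 1% O2 were lower than the -0.41 of the members. No gene of these lists was called in 1% O2.

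In response to 1% O2, *Tmem100*, a BMP target of endothelial and other cells, fell in cKO TFs (edgeR, log2 fold change -2.17, SE 0.41, adjusted p = 0.0203) and in gesicle-treated TFs (-1.58, SE 0.37, adjusted p = 0.0326), opposite in sign to *Atoh8*. *Pmepa1*, a TGF-beta target that restrains SMAD signalling, fell in cKO TFs (-0.63, SE 0.14, adjusted p = 0.0421). In Ctrl TFs no gene of the lists was called, and 11 of 11 other BMP targets had negative values, with a median of -0.21.

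**Figure D4:**
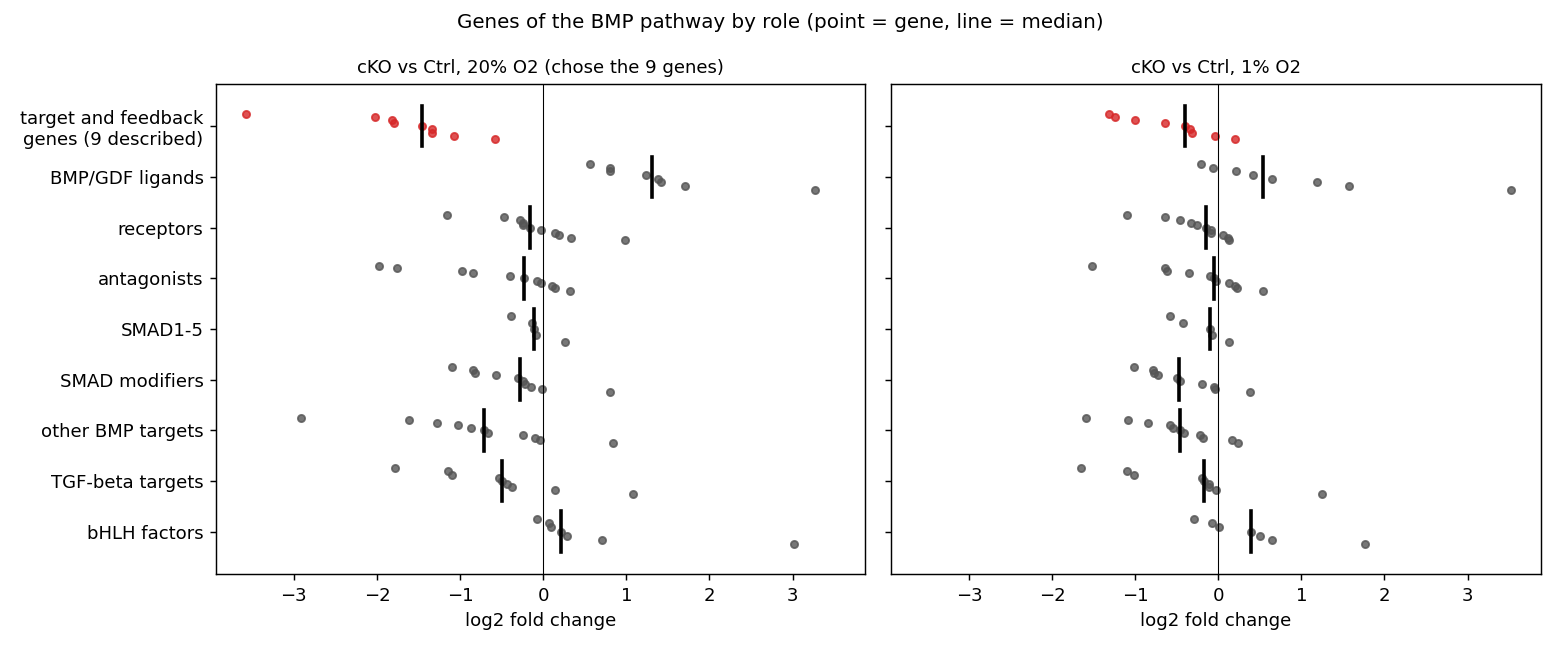
Log2 fold change of each tested gene (points) of the BMP pathway in cKO against Ctrl TFs, by role, in 20% O2 on the left and in 1% O2 on the right, with a black line at each list's median. The 9 members, in red, have a median of -1.46 in 20% O2, the contrast that chose them, and -0.41 in 1% O2, while the ligands have medians of 1.31 and 0.53.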

How the data were processed

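Poly-A RNA-seq libraries of mouse tail TFs were made by the authors, who trimmed the reads with cutadapt, checked them with FastQC 0.11.8, mapped them to GRCm38 (Ensembl) with STAR and quantified genes with RSEM 1.3.3, with a report from MultiQC 1.20. The authors deposited RSEM's estimated counts (expected counts) as whole numbers for 55491 rows, 4 of them transgenes, without normalization. The members and gene lists were chosen with earlier results of these data known. The labels give 10% serum and the paper 1%.

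Counts were scaled with TMM, and CPM values use these factors. Genes that passed filterByExpr were tested with edgeR 4.0.16 (quasi-likelihood F test, 1 coefficient per group, R 4.3.3) with 15850 genes for the 12 libraries without gesicles and, for comparisons with gesicles, 16174 genes for all 18. Calls needed a fold change of 1.5 or more and a p under 0.05 after Benjamini-Hochberg adjustment over all genes tested. Each SE was taken as the ratio of the log2 fold change to the root of F. P-values measure the spread between these libraries, since separate animals are stated for the study but not per library. Levels per kilobase use the exon union of GENCODE M21. All 9 members were named in every comparison, and other list genes where called, except that some results that this rule covers are not reported here. Alternatives were DESeq2 1.42.0, other scalings and filters, a replicate block, other sets of libraries, each library left out, and sex as a covariate, added after seeing the data, as was the gesicle by oxygen test.

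The deviations of same-numbered libraries from their group means correlated above 0.1 in every pair for Ctrl TFs at the 2 oxygen levels (0.246 to 0.409) and for gesicle-treated with Ctrl TFs in 20% O2 (0.319 to 0.406) and in 1% O2 (0.148 to 0.240), so those numbers were read as pairs. The main tests did not use these pairs, which entered the tests only through the replicate block alternatives.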

Additional observations from a re-analysis of the deposited data

How the results depend on the processing

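Alternatives were compared with the values above for each member and for the number of members called. Between 1% and 20% O2 in Ctrl TFs, 1 member was called without the filter on low counts (1.48% of all genes) and 1 with DESeq2 (4.57%), and 0 to 1 as single libraries were left out (0.709% to 1.59%). In cKO TFs, 2 were called with DESeq2 (5.94%), 0 in the fit of all 18 libraries (3.01%), and 0 to 5 as single libraries were left out (0.599% to 8.42%). Between cKO and Ctrl TFs in 1% O2, 2 were called without the filter (0.389%) and 2 with DESeq2 (2.36%), and 0 whichever single library was left out (0% to 0.037%). The causes were not tested. Values whose direction turned are given as their range as single libraries were left out. Between the oxygen levels, *Bambi* ranged from -0.22 to 0.011 in Ctrl TFs (above 0 without replicate 3 in 20% O2, at 0.00043, or replicate 1 in 1% O2), and *Id4* in cKO TFs from -0.030 to 0.89 (lowest without replicate 3 in 20% O2). In gesicle-treated TFs, *Id1* ranged from -0.53 to 0.51 and was at 0.054 with a replicate block and 0.067 with one within genotype, *Id3* ranged from -0.084 to 0.90 and *Smad6* from -0.023 to 0.85, both lowest without replicate 3 in 20% O2. Between cKO and Ctrl TFs in 1% O2, *Id4* ranged from -0.089 to 0.57 and *Bambi* from -0.17 to 0.14. Relative to Ctrl TFs, gesicle-treated TFs ranged from -0.70 to 0.34 for *Id1* and from -0.84 to 0.14 for *Id3* in 20% O2, and *Smad7* was at -0.11 without replicate 2 in 1% O2. The replicate block changed no call: *Atoh8* in cKO TFs between oxygen levels was at 1.94 (adjusted p = 0.0291), and in cKO against Ctrl TFs in 1% O2 *Smad7* was at -1.25 (0.170) and *Atoh8* at -1.32 (0.239), all by edgeR. Same-numbered libraries were not correlated above 0.1 in every pair for cKO TFs at the 2 oxygen levels (0.0851 to 0.303), gesicle-treated TFs at the 2 levels (0.0217 to 0.196) or cKO with Ctrl TFs in 1% O2 (-0.0035 to 0.198). For the comparisons with cKO TFs the numbers may thus be names only. For gesicle-treated TFs these correlations do not settle the pairing, since both gesicle groups were read as paired with Ctrl TFs. RLE scaling, a filter of CPM above 1 in 3 libraries, a fit of the 2 groups compared alone, no fold change minimum and sex as a covariate (added after the data were seen) left the number of members called within 1.5 times of the reported number in each tested comparison.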

Other observations

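The 4 transgene sequences in the count table held few counts. Cre had 15 counts over 5 of the 6 cKO libraries and eGFP had 14 over 5 of 6, both with 0 in the Ctrl and gesicle libraries. tdTomato had 8 counts over 5 of the 6 gesicle libraries and 0 elsewhere, and mCherry had 0 in all 18 libraries. Cre transcripts were thus counted in cKO TFs only, and the level of the member genes in these libraries was not related to them. *Kdr*, a receptor of vascular endothelial growth factor, was among the 7 endothelial markers listed. It was called lower in 1% than in 20% O2 in gesicle-treated TFs (edgeR, log2 fold change -4.28, SE 0.98, adjusted p = 0.0339). Its level was very low, with means of 0.459 CPM in 20% and 0.0201 CPM in 1% O2 in those TFs. The means of *Kdr* were also lower in 1% O2 in Ctrl TFs (0.392 and 0.0283 CPM) and cKO TFs (0.0594 and 0 CPM). *Kdr* did not pass the filter on low counts in the fit of libraries without gesicles, so these differences in Ctrl and cKO TFs were not tested. In cKO TFs in 20% O2 its highest library was at only 0.108 CPM. Whether the fall was particular to gesicle-treated TFs was thus not tested. *Rgs5*, a mural cell marker, was called higher in 1% O2 in gesicle-treated TFs (edgeR, log2 fold change 1.09, SE 0.24, adjusted p = 0.0235). However, 4 of the 7 mural markers had negative values there, and the list's median was -0.36. In those libraries 0 of the 9 BMP-SMAD genes were called.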
